A study of Homo sapiens with 6 samples.

Results

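A set of 35 genes of homologous recombination and of the Fanconi anaemia pathway was followed in HepG2 cells after knockdown of KIF11. They were taken by gene symbol from a count table of 20030 genes, and all 35 were found there and passed the filter on low counts, which kept 12369 genes. HepG2 is an established human hepatoma line. The sh-ctrl cells carried a control shRNA and the sh-KIF11 cells an shRNA against KIF11, the mitotic kinesin of the bipolar spindle, each delivered stably with a lentiviral vector and puromycin selection. Poly(A) RNA of each group was sequenced in 3 libraries of 18167773 to 19583282 counts. The labels do not say whether the 3 libraries of a group came from separate cultures, so the p-values measure the spread between libraries, which may be technical. Whether all sh-KIF11 libraries carried the same hairpin is not stated in the labels.

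Homologous recombination repairs a broken chromosome by copying the intact sister. The MRE11-RAD50-NBN complex and its partner RBBP8 (CtIP) trim the break ends, ATM and ATR signal the damage to the checkpoint kinases CHEK2 and CHEK1, and BRCA1, PALB2, BRCA2, the XRCC2-XRCC3 family and the RAD54 proteins carry the pairing of strands with the sister. The Fanconi pathway acts on DNA crosslinks that block replication: a multi-subunit core ubiquitin ligase, with FANCL as its catalytic subunit and UBE2T as its ubiquitin-conjugating enzyme, modifies the FANCD2-FANCI pair. Many of these genes are transcribed most in proliferating cells, and inherited loss of several of them causes Fanconi anaemia or predisposes to cancer.

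The knocked-down gene was reduced but not absent. KIF11 was counted 1976, 2088 and 2039 times under sh-ctrl, against 1448, 1478 and 1240 times under sh-KIF11, without overlap. Its normalised level in CPM (counts scaled to the effective library size) averaged 116 ± 5.01 under sh-ctrl (SD, n = 3) and 68.8 ± 5.16 under sh-KIF11, a log2 change of -0.75 (SE 0.0573, adjusted p = 4.22e-15, edgeR quasi-likelihood test with Benjamini-Hochberg adjustment). An exact permutation test of the 6 libraries gave p = 0.1, the smallest that 3 against 3 allow. The liver identity of the line was visible in all 10 hepatocyte markers, of which 9 were lower in sh-KIF11 (median log2 change -1.1) and 8 by library totals. Their summed level was 29900 to 31200 CPM of the library totals in sh-ctrl and 15700 to 16800 in sh-KIF11. Of 6 leukocyte markers, the defining PTPRC had at most 1 count in any library and MS4A1 had 0, while LYZ had 42669 to 48935 counts under sh-ctrl and 9049 to 11930 under sh-KIF11. The summed leukocyte list fell from 2300-2740 to 548-687 CPM, and nearly all of it was LYZ. The 6 fibroblast markers summed to 2.35-3.63 CPM in sh-ctrl and 1.52-2.2 in sh-KIF11 with DCN at 0, and the 4 endothelial markers to 2.91-3.28 and 5.08-5.39 CPM. The part of these markers in the results below was not tested.

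The repair genes split in both directions with small changes. Of the 35, 13 were higher in sh-KIF11 and 10 were lower at an adjusted p under 0.05 (edgeR, adjusted over all 12369 genes), and 12 did not pass. Together 23 of 35 (65.7%) were called, against 69.1% of all tested genes. By direction, 34.4% of all genes were higher and 34.7% lower, so the repair genes were called about as often as any gene of this series. In this fit none reached a 2-fold change that passed the test, whereas 11.7% of all tested genes did. RAD50, with a log2 change of 1.0, stopped just short of it before rounding. RAD50 was past 2-fold with upper-quartile factors (1.08), by library totals (1.23) and with limma on log2(FPKM + 0.1) (1.1). The same held with at least 10 counts in every library (1.02). It also held without sh-ctrl replicate 1 (1.01) or 2 (1.03) and without sh-KIF11 replicate 1 (1.03) or 3 (1.01). RAD50 was below 2-fold without a low-count filter (0.99), without sh-ctrl replicate 3 (0.97) and without sh-KIF11 replicate 2 (0.95). The other settings gave 1.0 after rounding. The absence of a 2-fold change therefore holds for the main fit and not for every setting. The median log2 change of the 35 was 0.07 with quartiles of -0.18 and 0.25, beside 0.00 with quartiles of -0.31 and 0.36 for all tested genes. The normalised libraries of both groups did not overlap for 23 of the 35, against 71.2% of all tested genes; of these, 22 were called genes and the other was FANCE.

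These directions are relative to the scaling. TMM factors were 0.922 to 0.926 in sh-ctrl and 1.08 to 1.09 in sh-KIF11, so that an equal raw count stands for a lower normalised level in sh-KIF11. Scaled by library totals alone, the median of all tested genes moved to 0.24 and that of the 35 to 0.30, and 22 of the 35 were then higher and 5 lower, beside 53.5% and 19.2% of all genes. The ratios between genes of the same library, given further on, do not depend on it. With upper-quartile factors 14 were higher and 8 lower, beside 40.5% and 28.8% of all genes. With limma on the deposited FPKM values, 16 were higher and 6 lower on the log2(FPKM + 1) scale, beside 45.6% and 21.0%, and 15 and 6 on the log2(FPKM + 0.1) scale, beside 45.8% and 21.0%. RLE size factors gave 13 and 10, beside 34.5% and 34.6%, and DESeq2 gave 12 and 9, beside 32.5% and 33.0%. In bulk RNA, fewer cells in which a gene is transcribed and less RNA per cell cannot be told apart.

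**Figure D1:**
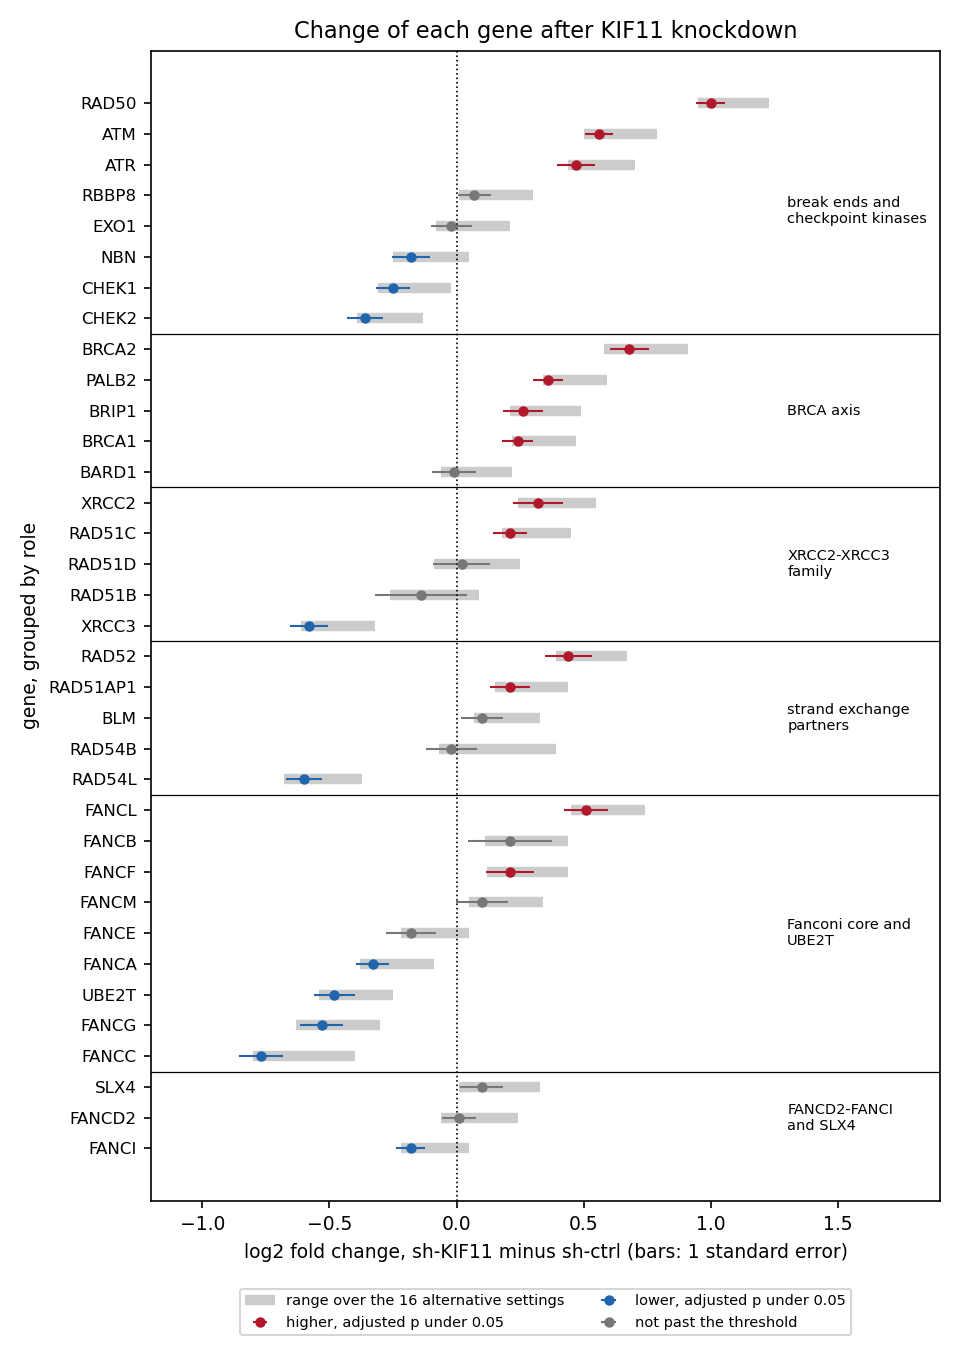
Log2 change of each of the 35 genes in sh-KIF11 relative to sh-ctrl, with standard error bars (edgeR, 3 libraries a group), grouped by role and coloured by call, over grey bars for the range of the 16 alternative settings. RAD50 lies farthest right at 1.0 and FANCC farthest left at -0.77, with 12 genes around 0 that did not pass the test.

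The proximal promoters of some of the genes with large changes are shown here because the members split in direction although many are known as cell cycle genes. RefSeq promoter windows (GRCh38.p14, 250 bases before to 50 after the start) were found for 32 of the 35; RAD54B, NBN and FANCI had none in the table used. For homologous recombination and for the Fanconi pathway, the gene with the largest rise and the one with the largest fall among those with a single window are printed 5′ to 3′ in the direction of transcription, with the words searched in capitals. They are RAD50 (chr5:132556727-132557026, plus strand), XRCC3 (chr14:103715402-103715701, minus strand), FANCL (chr2:58241276-58241575, minus strand) and FANCG (chr9:35079893-35080192, minus strand). RAD54L and FANCC fell more than XRCC3 and FANCG but are not among the genes with a single window, so they are not printed.
RAD50: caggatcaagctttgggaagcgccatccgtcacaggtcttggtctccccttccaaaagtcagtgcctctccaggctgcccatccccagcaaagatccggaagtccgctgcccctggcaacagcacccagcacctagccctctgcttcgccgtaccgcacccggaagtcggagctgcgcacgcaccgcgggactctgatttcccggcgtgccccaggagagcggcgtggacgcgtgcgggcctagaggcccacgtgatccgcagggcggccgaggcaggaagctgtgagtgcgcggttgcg
XRCC3: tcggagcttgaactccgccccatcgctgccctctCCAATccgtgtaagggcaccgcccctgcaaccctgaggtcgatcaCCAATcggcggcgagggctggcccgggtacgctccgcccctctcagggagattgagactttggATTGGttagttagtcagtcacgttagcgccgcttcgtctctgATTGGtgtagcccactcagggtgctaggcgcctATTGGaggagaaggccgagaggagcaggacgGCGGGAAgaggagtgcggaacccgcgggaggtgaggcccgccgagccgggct
FANCL: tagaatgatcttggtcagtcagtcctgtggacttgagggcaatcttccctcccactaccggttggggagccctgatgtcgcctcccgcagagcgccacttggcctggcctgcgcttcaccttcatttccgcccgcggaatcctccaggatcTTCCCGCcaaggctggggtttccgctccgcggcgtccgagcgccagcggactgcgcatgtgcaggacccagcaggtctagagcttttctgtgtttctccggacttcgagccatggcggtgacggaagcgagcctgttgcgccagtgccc
FANCG: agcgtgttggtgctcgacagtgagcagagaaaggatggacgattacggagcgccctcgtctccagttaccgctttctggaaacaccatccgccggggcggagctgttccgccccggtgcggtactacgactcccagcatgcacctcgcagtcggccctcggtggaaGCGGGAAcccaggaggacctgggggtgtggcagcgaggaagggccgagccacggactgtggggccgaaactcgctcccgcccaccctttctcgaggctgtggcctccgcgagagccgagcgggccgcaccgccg

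The words searched on both strands were, for E2F, TTCCCGC and its variants TTCGCGC, then TTGCCGC, and also TTGGCGC. For the cell cycle homology region (CHR) they were TTTGAA and the variant TTCGAA. The word of NF-Y was CCAAT, and no word of a motif contains a word of another. The RAD50 window held none of them. The XRCC3 window held 5 CCAAT words, 3 of them read on the other strand as ATTGG, and 1 E2F word read as GCGGGAA, and the windows of FANCL and FANCG held 1 E2F word each. Some genes have more than 1 window (11 of the 32), and a gene was counted when any of its windows held a word. An E2F word was present for 18 of the 32 genes (56.2%), against 25% of 9754 tested genes with a window and 15.3% of all 27305 genes with a window. It was present in 7 of 13 genes that were higher, in 5 of 8 that were lower and in 6 of 11 that did not pass. CCAAT was present for 14 of the 32 genes (43.8%, against 43.4% of tested genes and 39.7% of all genes), which included 6 of the 8 lower genes, 6 of the 13 higher genes and 2 of the 11 others. A CHR word was present for 4 of the 32 genes (12.5%, against 15.6% of tested genes and 19.5% of all genes), which were FANCC, BRIP1, ATM and UBE2T. These are matches of letters in a window and are given without a test.

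The genes of the break ends and the checkpoint kinases held the largest rise. Of 8, 3 were higher (RAD50, ATM, ATR) and 3 lower (CHEK2, CHEK1, NBN), beside 34.4% and 34.7% of all tested genes. In this fit both apical kinases rose while both of their effector kinases fell. By library totals, none of the lower 3 passed, and NBN had a log2 change of 0.05. With limma on the FPKM values, CHEK2 passed as lower but CHEK1 and NBN did not.

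RAD50, the coiled-coil ATPase of the break-binding complex (chr5:132556019-132646344, plus strand, GRCh38), had 1076, 1123 and 967 counts under sh-ctrl, against 2301, 2638 and 2314 under sh-KIF11. The groups were far apart. Its normalised level rose from 60.0 ± 2.49 to 120 ± 6.73 CPM (SD, n = 3), a log2 change of 1.0 (SE 0.0567, adjusted p = 3.11e-19, edgeR). NBN, the partner that recruits ATM to the complex, went the other way. It had 683, 741 and 631 counts under sh-ctrl, against 640, 697 and 738 under sh-KIF11, or 38.9 ± 1.91 and 34.3 ± 2.82 CPM, with 1 normalised sh-KIF11 library level with the lowest of sh-ctrl. The log2 change was -0.18 (SE 0.0753, adjusted p = 0.0309, edgeR), and the call was lost under 10 of 16 alternative settings, where the adjusted p was 0.0511 to 0.565. These included the fits without sh-ctrl replicate 2 (0.157), without sh-KIF11 replicate 1 (0.172) and without sh-KIF11 replicate 2 (0.0954). MRE11, the nuclease of the complex and no member of the 35, rose by 0.29 (SE 0.0733, adjusted p = 0.000553, edgeR). The 3 subunits thus changed by unequal amounts.

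ATM, the kinase that responds to double-strand breaks, had 1440, 1404 and 1205 counts under sh-ctrl, against 2196, 2400 and 2220 under sh-KIF11. That was 76.6 ± 4.78 and 113 ± 3.25 CPM, a log2 change of 0.56 (SE 0.0552, adjusted p = 9.07e-12, edgeR). ATR, the kinase that responds to exposed single-stranded DNA, had 467, 526 and 469 counts under sh-ctrl, against 768, 805 and 750 under sh-KIF11. Its log2 change was 0.47 (SE 0.0743, adjusted p = 5e-07, edgeR). For both kinases the lowest sh-KIF11 library lay above the highest sh-ctrl library. CHEK2, which ATM phosphorylates, had 830, 859 and 895 counts under sh-ctrl, against 747, 817 and 743 under sh-KIF11, or 49.1 ± 3.48 and 38.1 ± 1.19 CPM. CHEK1, which ATR phosphorylates, had 911, 1005 and 973 counts against 883, 1016 and 882, or 54.8 ± 3.37 and 45.9 ± 2.75 CPM. The raw counts of CHEK1 overlapped and its normalised levels did not. The log2 changes were -0.36 for CHEK2 (SE 0.0704, adjusted p = 1.81e-05) and -0.25 for CHEK1 (SE 0.0678, adjusted p = 0.0011), both by edgeR. By library totals they were -0.13 and -0.02, with adjusted p of 0.0895 and 0.771. With limma on log2(FPKM + 1), CHEK2 was -0.23 (adjusted p = 0.00615) and CHEK1 -0.07 (adjusted p = 0.374). CHEK1 passed on no FPKM scale.

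The resection factors RBBP8 and EXO1 did not pass the test. RBBP8, which starts end trimming with the MRE11 complex, had 910, 1043 and 975 counts under sh-ctrl, against 1126, 1220 and 1171 under sh-KIF11. EXO1, the nuclease of long-range resection, had 413, 454 and 422 counts under sh-ctrl, against 472, 537 and 446 under sh-KIF11. Although the raw counts were mostly higher in sh-KIF11, the normalised levels overlapped, at 55.5 ± 3.90 and 58.1 ± 1.77 CPM for RBBP8 and 24.4 ± 1.11 and 24.0 ± 1.72 CPM for EXO1. Their log2 changes were 0.07 (SE 0.0643, adjusted p = 0.361) and -0.02 (SE 0.0814, adjusted p = 0.809) by edgeR. By library totals both passed as higher, at 0.30 and 0.21. RBBP8 also passed with upper-quartile factors, at 0.15 (adjusted p = 0.0433, edgeR).

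**Figure D2:**
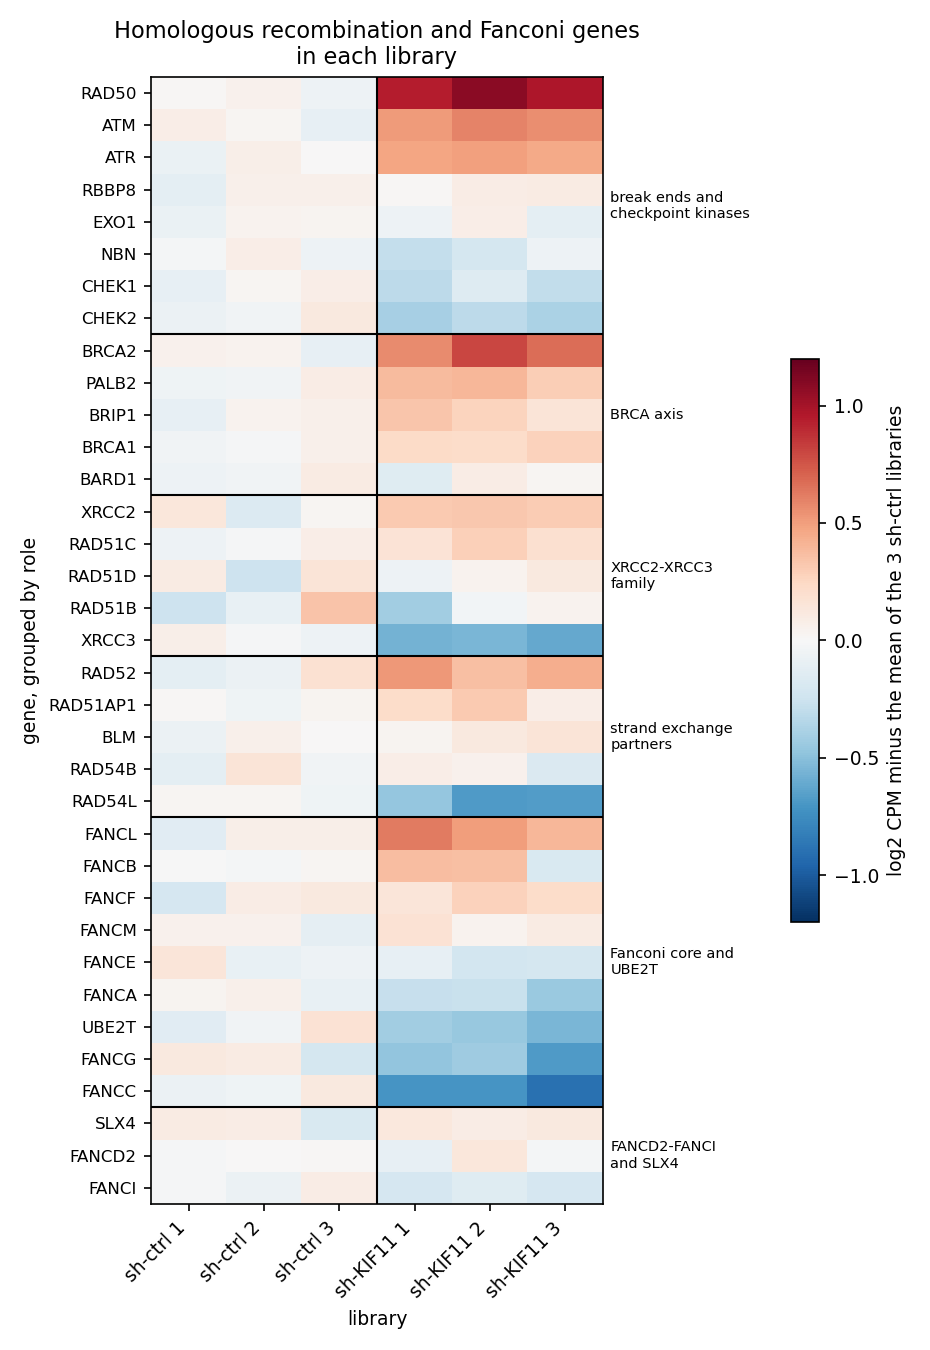
Normalised level of each of the 35 genes in each of the 6 libraries, as colour for log2 CPM minus the mean of the sh-ctrl libraries, with genes grouped by role. RAD50, BRCA2, ATM, FANCL, ATR and RAD52 are raised in all 3 sh-KIF11 libraries, and FANCC, RAD54L, XRCC3, FANCG and UBE2T are lowered in all 3.

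Most of the BRCA genes were higher in this fit. Of the 5 genes of the BRCA axis, 4 were higher, none was lower and BARD1 did not pass. Of all tested genes, 34.4% were higher and 34.7% lower. The median log2 change of the axis was 0.26, beside 0.00 with quartiles of -0.31 and 0.36 for all tested genes. By library totals all 5 were higher, beside 53.5% of all tested genes. BRCA2, the tumour suppressor that acts on resected single-stranded DNA (chr13:32315474-32400266, plus strand), had 508, 510 and 434 counts under sh-ctrl, against 815, 992 and 859 under sh-KIF11. The groups did not overlap, at 27.5 ± 1.54 and 44.0 ± 3.68 CPM (SD, n = 3), and the log2 change was 0.68 (SE 0.077, adjusted p = 2.93e-10, edgeR). PALB2, the bridge between BRCA1 and BRCA2, rose from 58.3 ± 3.27 to 74.8 ± 2.89 CPM, or 0.36 on the log2 scale (SE 0.0601, adjusted p = 1.51e-06, edgeR). BRIP1, the helicase bound to BRCA1, and BRCA1 itself rose less, by 0.26 (SE 0.0791, adjusted p = 0.00433, edgeR) and 0.24 (SE 0.0606, adjusted p = 0.000512, edgeR). BRCA1 was at 55.5 ± 2.05 CPM in sh-ctrl and 65.7 ± 1.47 CPM in sh-KIF11. All 4 kept their call under each of the 16 alternatives. BARD1, the obligate ring-finger partner of BRCA1, had 380, 390 and 401 counts under sh-ctrl, against 403, 488 and 444 under sh-KIF11. After normalisation it stood at 22.2 ± 1.34 and 22.1 ± 1.79 CPM, a log2 change of -0.01 (SE 0.0848, adjusted p = 0.927, edgeR), which became 0.22 by library totals (adjusted p = 0.0184).

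The family of XRCC2 and XRCC3, which assists strand pairing, went both ways. Of 5, XRCC2 and RAD51C were higher, XRCC3 was lower, and RAD51D and RAD51B did not pass. The shares over all tested genes were 34.4% higher and 34.7% lower. XRCC3 (chr14:103697609-103715504, minus strand), whose window with 5 CCAAT words is printed above, had 695, 664 and 601 counts under sh-ctrl, against 504, 524 and 479 under sh-KIF11. The groups were well separated at 37.1 ± 1.70 and 24.9 ± 0.546 CPM, a log2 change of -0.58 (SE 0.0752, adjusted p = 8.78e-09, edgeR). RAD51C, its partner in the CX3 complex, had 715, 750 and 747 counts under sh-ctrl, against 943, 1055 and 948 under sh-KIF11. Its log2 change was 0.21 (SE 0.0686, adjusted p = 0.0056, edgeR), and without sh-KIF11 replicate 2 the adjusted p was 0.0537. XRCC2 rose from 12.8 ± 1.31 to 15.9 ± 0.0856 CPM, or 0.32 on the log2 scale (SE 0.0987, adjusted p = 0.00446, edgeR). RAD51D, which pairs with XRCC2, had 225, 179 and 221 counts under sh-ctrl, against 226, 250 and 253 under sh-KIF11. Its libraries overlapped and the log2 change was 0.02 (SE 0.111, adjusted p = 0.861, edgeR). RAD51B was the lowest of the 35, at 4.61 ± 1.01 and 4.17 ± 0.682 CPM, with a log2 change of -0.14 whose SE of 0.182 left a change of that size undetectable at this depth.

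Among the 5 partners of strand exchange, RAD52 and RAD54L moved in opposite directions. RAD52, the annealing protein, had 263, 272 and 305 counts under sh-ctrl, against 458, 422 and 425 under sh-KIF11, and its groups did not overlap. Its level went from 16 ± 1.83 to 21.6 ± 1.22 CPM, a log2 change of 0.44 (SE 0.0914, adjusted p = 5.49e-05, edgeR). RAD54L, a DNA-dependent motor of strand exchange (chr1:46247688-46278473, plus strand), had 938, 952 and 846 counts under sh-ctrl, against 753, 669 and 640 under sh-KIF11. Also without overlap, it went from 51.8 ± 1.47 to 34.1 ± 2.97 CPM, a log2 change of -0.60 (SE 0.0719, adjusted p = 9.98e-10, edgeR). RAD51AP1, which stimulates strand pairing, was the other gene that rose. It had 492, 478 and 474 counts under sh-ctrl, against 640, 703 and 572 under sh-KIF11, a log2 change of 0.21 (SE 0.0778, adjusted p = 0.0167, edgeR) that missed the threshold without sh-KIF11 replicate 2 (0.14) or without sh-ctrl replicate 2 (0.0599). RAD54B, the paralog of RAD54L, had 241, 295 and 240 counts under sh-ctrl, against 309, 315 and 256 under sh-KIF11. BLM, the helicase that resolves joint molecules, had 368, 406 and 367 counts against 444, 484 and 473. Neither passed, with log2 changes of -0.02 (SE 0.101, adjusted p = 0.898) and 0.10 (SE 0.0818, adjusted p = 0.283) by edgeR. RAD54B was called higher on the deposited FPKM scale, at 0.29 with limma (adjusted p = 0.00253), where FPKM is the fragment count scaled to transcript length and library depth.

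The Fanconi core ligase held the largest fall. Of its 8 subunits and UBE2T, 4 were lower (FANCC, FANCG, UBE2T, FANCA), 2 were higher (FANCL, FANCF) and 3 did not pass. Together 66.7% of them were called, against 69.1% of all tested genes (34.7% lower, 34.4% higher). Their median log2 change was -0.18. By library totals 4 were higher and 3 lower, beside 53.5% and 19.2% of all tested genes. The median was then 0.05, beside 0.24 for all tested genes. FANCC (chr9:95099054-95426796, minus strand), a subunit of the FANCC-FANCE-FANCF module, had 472, 486 and 511 counts under sh-ctrl, against 342, 352 and 295 under sh-KIF11. Its level fell without overlap from 27.9 ± 2.08 to 16.3 ± 1.19 CPM, a log2 change of -0.77 (SE 0.0858, adjusted p = 1.9e-10, edgeR). FANCF, the adaptor of the same module, had 242, 300 and 285 counts under sh-ctrl, against 348, 392 and 359 under sh-KIF11. It rose by 0.21 (SE 0.0945, adjusted p = 0.0445, edgeR), and 5 of the 16 alternatives lost that call, among them DESeq2 (adjusted p = 0.0895) and the fits without sh-ctrl replicate 1 (0.283), sh-KIF11 replicate 2 (0.147) and sh-KIF11 replicate 3 (0.0844). FANCE, the third subunit, was at 15.7 ± 1.38 CPM in sh-ctrl and 13.8 ± 0.636 in sh-KIF11. Its libraries did not overlap, but the log2 change of -0.18 (SE 0.0973) had an adjusted p of 0.0922 by edgeR.

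FANCL, the catalytic ring-finger subunit (chr2:58159243-58241372, minus strand), had 302, 351 and 327 counts under sh-ctrl, against 574, 545 and 483 under sh-KIF11. The level rose without overlap from 18.6 ± 1.43 to 26.5 ± 2.06 CPM, a log2 change of 0.51 (SE 0.0856, adjusted p = 1.51e-06, edgeR). UBE2T, the ubiquitin-conjugating enzyme that works with FANCL, went the other way (chr1:202331657-202341980, minus strand). It had 609, 658 and 716 counts under sh-ctrl, against 561, 565 and 506 under sh-KIF11, or 37.7 ± 4.27 and 27.0 ± 1.19 CPM, a log2 change of -0.48 (SE 0.0797, adjusted p = 1.26e-06, edgeR). FANCB, the partner of FANCL in the catalytic module, had only 87, 87 and 84 counts under sh-ctrl, against 127, 130 and 85 under sh-KIF11. Replicate 3 of sh-KIF11 lay below all of sh-ctrl after normalisation, and the log2 change of 0.21 (SE 0.164) had an adjusted p of 0.262 by edgeR.

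FANCG and FANCA, which bind each other in the core, were both lower by edgeR. FANCG (chr9:35073835-35080016, minus strand) had 677, 677 and 511 counts under sh-ctrl, against 505, 540 and 432 under sh-KIF11. It fell from 35.2 ± 4.31 to 24.4 ± 2.2 CPM, a log2 change of -0.53 (SE 0.0847, adjusted p = 5.79e-07, edgeR). FANCA had 1128, 1161 and 978 counts under sh-ctrl, against 1023, 1061 and 892 under sh-KIF11. Its raw counts overlapped while the normalised levels, 61.8 ± 3.42 and 49.2 ± 3.41 CPM, did not. The log2 change of FANCA was -0.33 (SE 0.066, adjusted p = 2.67e-05, edgeR), and by library totals it was -0.10 (adjusted p = 0.167). With limma on log2(FPKM + 1) FANCA was -0.09 (adjusted p = 0.319), and it passed on no FPKM scale, whereas FANCG kept its call. FANCM, the translocase that anchors the core on DNA, had 219, 222 and 185 counts under sh-ctrl, against 269, 252 and 250 under sh-KIF11. The normalised libraries of FANCM overlapped, and the log2 change was 0.10 (SE 0.103, adjusted p = 0.374, edgeR).

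The substrates of the ligase changed little. FANCD2 had 974, 998 and 937 counts under sh-ctrl, against 1034, 1254 and 1072 under sh-KIF11, or 55.1 ± 0.473 and 55.5 ± 4.63 CPM, a log2 change of 0.01 (SE 0.0655, adjusted p = 0.906, edgeR). FANCI, its partner, had 1449, 1408 and 1468 counts under sh-ctrl, against 1426, 1537 and 1406 under sh-KIF11. Its normalised level fell from 82.1 ± 4.54 to 72.2 ± 1.78 CPM, a log2 change of -0.18 (SE 0.0569, adjusted p = 0.00419, edgeR), which was 0.05 by library totals and did not pass in 5 alternatives. SLX4, the scaffold of the nucleases that unhook a crosslink, had 420, 421 and 326 counts under sh-ctrl, against 479, 485 and 469 under sh-KIF11. Its libraries overlapped, with a log2 change of 0.10 (SE 0.0845, adjusted p = 0.289, edgeR). By library totals FANCD2 and SLX4 were called higher, at 0.24 and 0.33.

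Because the scaling of the libraries cancels within a library, the counts of partner genes were also set against each other. The 16 pairs were chosen for known binding or signalling after the values had been seen, so they are a description with no test. In 15 of 16 the ratios of both groups did not overlap, but the same held for 70.1% of all pairs of tested genes. The RAD50 to NBN ratio was 1.58, 1.52 and 1.53 under sh-ctrl, against 3.60, 3.78 and 3.14 under sh-KIF11, a 2.27-fold change, and RAD50 to MRE11 went from 1.80 ± 0.0468 to 2.93 ± 0.0379 (SD, n = 3). The kinases gained on their effectors. ATM to CHEK2 went from 1.57 ± 0.202 to 2.96 ± 0.0284, and ATR to CHEK1 from 0.506 ± 0.0215 to 0.837 ± 0.0403. RAD52 to RAD54L went from 0.309 ± 0.0448 to 0.634 ± 0.0281. Within the Fanconi ligase, FANCL to UBE2T went from 0.495 ± 0.0384 to 0.981 ± 0.0371, and FANCF to FANCC from 0.563 ± 0.0525 to 1.12 ± 0.0997. Each of these pairs thus changed its balance whichever scaling was used. RAD51C to XRCC3 went from 1.13 ± 0.107 to 1.95 ± 0.0743. Smaller shifts were seen for BRCA1 to BARD1 (1.19-fold), BRCA2 to PALB2 (1.25-fold), FANCD2 to FANCI (1.14-fold) and FANCG to FANCA (0.873-fold). RAD51C to RAD51D was the pair that overlapped, at 3.18, 4.19 and 3.38 under sh-ctrl, against 4.17, 4.22 and 3.75 under sh-KIF11.

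**Figure D3:**
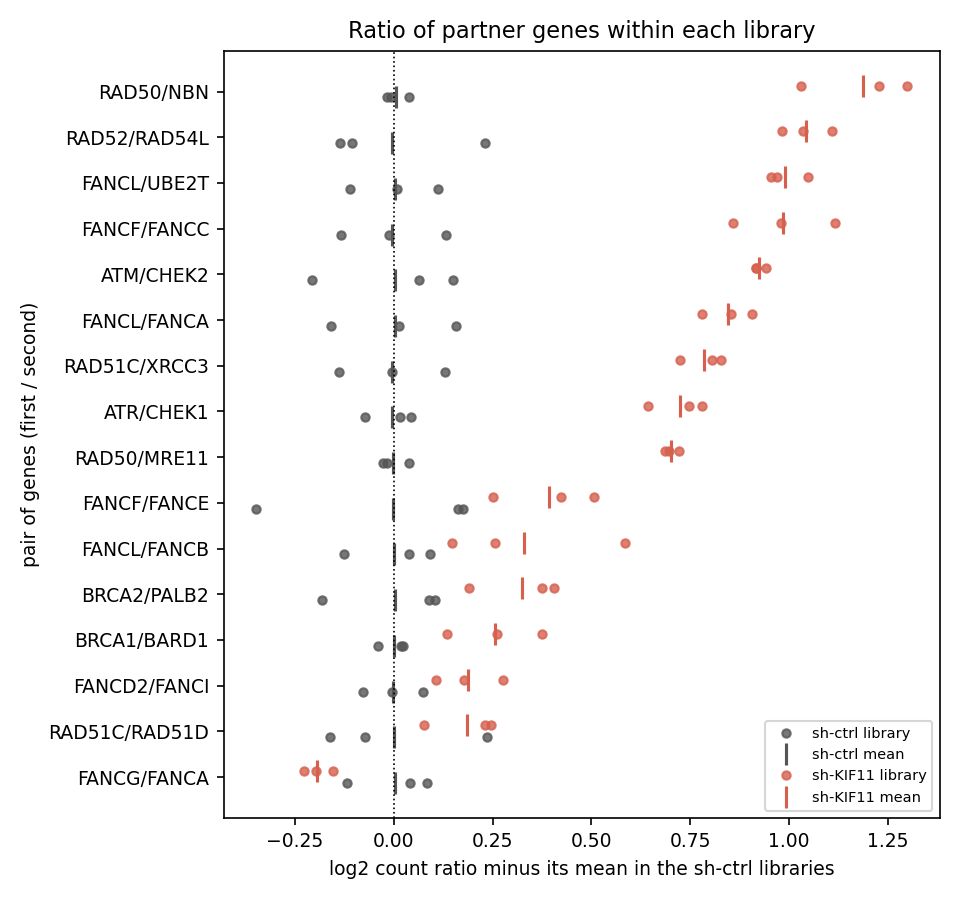
Ratio of the raw counts of 2 partner genes in each library, for the 16 pairs, as the log2 ratio minus its sh-ctrl mean, with points for libraries and ticks for group means. The groups separate in 15 of 16 pairs, widest for RAD50 to NBN (1.54 and 3.51 on average), and overlap for RAD51C to RAD51D.

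Levels between genes were compared per length, as FPKM. In sh-ctrl the 35 genes ranged from 0.195 ± 0.0331 for RAD51B to 24.7 ± 2.35 for UBE2T (SD, n = 3), with a median of 4.95. The next levels were 13.3 ± 0.551 for FANCI, 13.2 ± 0.303 for RAD54L, 10.6 ± 0.784 for CHEK1 and 10.4 ± 0.397 for RAD51AP1. FANCI and RAD54L did not differ beyond their spread, nor did CHEK1 and RAD51AP1. At the lower end stood FANCB at 0.595 ± 0.00669, SLX4 at 1.31 ± 0.127 and FANCM at 1.33 ± 0.109, and SLX4 and FANCM did not differ beyond their spread either. In sh-KIF11 UBE2T was still the highest at 20.3 ± 0.971 FPKM, and RAD50 had moved from 6.59 ± 0.334 to 14.2 ± 0.799, above FANCI at 13.1 ± 0.302. The subunits of the core ligase differed widely within a library, and UBE2T exceeded its partner FANCL, at 5.75 ± 0.418 FPKM in sh-ctrl.

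**Figure D4:**
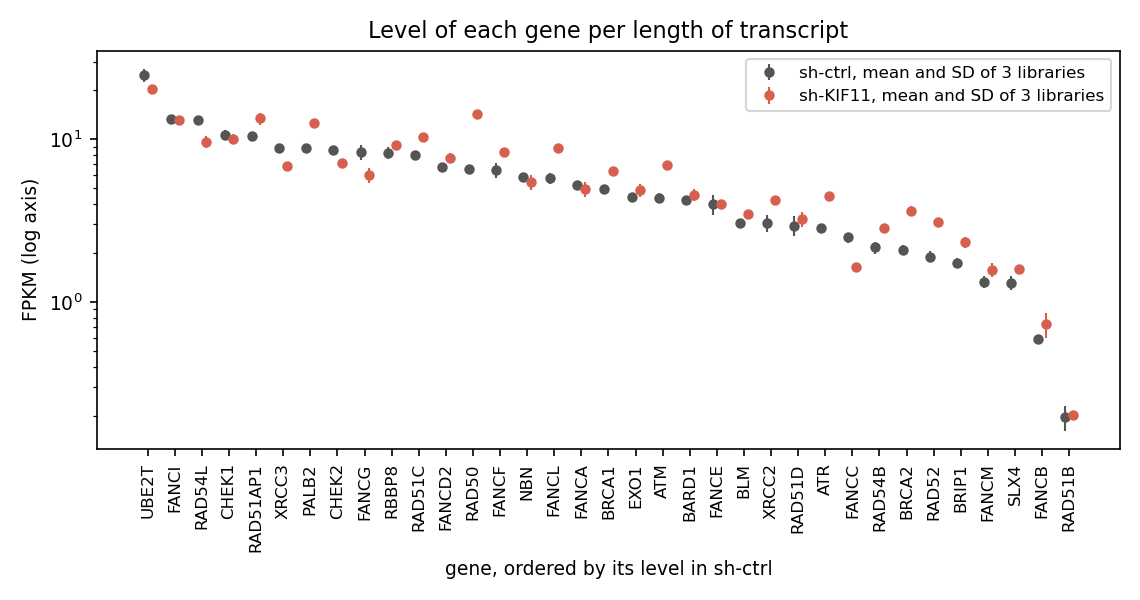
Mean FPKM of the 35 genes in sh-ctrl and in sh-KIF11, on a log axis with SD bars (n = 3), ordered by the level in sh-ctrl. UBE2T is highest at 24.7 and RAD51B lowest at 0.195 in sh-ctrl.

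The 59 other genes listed for recombination, crosslink repair and checkpoint signalling also went in both directions. Of them 20 were higher and 17 lower, beside 34.4% and 34.7% of all tested genes, with a median log2 change of 0.04. Together 62.7% were called, against 69.1% of all tested genes. A 2-fold change passed the test for 3 of the 59, against 11.7% of all tested genes. By the rule for named genes, the largest rises were EME2, a partner of the MUS81 nuclease, at 1.44 (SE 0.194), ABRAXAS1, the scaffold of the BRCA1-A complex, at 1.01 (SE 0.0854), TP53BP1, which limits end resection, at 0.81 (SE 0.0581), and SLX1A and REV3L, both at 0.71. SLX1A is uncertain, because its near-identical copy SLX1B may share reads with it, and its call was lost without sh-ctrl replicate 2 (adjusted p = 0.108) or sh-KIF11 replicate 1 (0.179) by edgeR. TP53BP1 had 923, 879 and 876 counts under sh-ctrl, against 1781, 1895 and 1715 under sh-KIF11. The largest falls included MAD2L2, the shieldin and polymerase zeta subunit, at -1.1 (SE 0.0685), H2AFX, the histone marked at breaks, at -0.84 (SE 0.0505), SWI5 at -0.67, and SWSAP1 at -0.52. REV3L and MAD2L2, both of polymerase zeta, thus moved in opposite directions. MAD2L2 had 1275, 1274 and 1172 counts under sh-ctrl, against 729, 632 and 634 under sh-KIF11. In the 47 tested genes of the deposited annotation's terms for homologous recombination and Fanconi anaemia, the 35 left out, 15 were higher and 12 lower. Their median was -0.02, and 57.4% were called, against 69.1% of all tested genes.

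Most genes of the cell cycle lists were lower in the main fit, in which 34.7% of all tested genes were lower and 34.4% higher. Of 39 S phase genes outside the 35, 27 were lower and 2 higher, with a median log2 change of -0.30, and of 54 G2/M genes 38 were lower and 6 higher, with a median of -0.43. By library totals these became 17 lower and 12 higher, and 30 lower and 14 higher, beside 19.2% lower and 53.5% higher of all tested genes. Their summed levels, as CPM of the library totals, were 4070 to 4270 in sh-ctrl and 3820 to 4010 in sh-KIF11 for S phase, and 7360 to 7520 and 6590 to 6870 for G2/M. RRM2, the small subunit of ribonucleotide reductase, was the S phase gene with the largest fall at -0.74, and GINS2 was among the next at -0.63. The S phase rises were CDCA7 at 1.46 and CASP8AP2 at 0.54. In G2/M, PSRC1, BIRC5 and CDC20 fell by 1.08, 1.0 and 0.96 on the log2 scale, while CENPE, CBX5 and KIF20B rose by 0.87, 0.62 and 0.44. The difference between the repair genes and these lists was not tested, nor was the part of the cell cycle in the repair genes' changes.

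**Figure D5:**
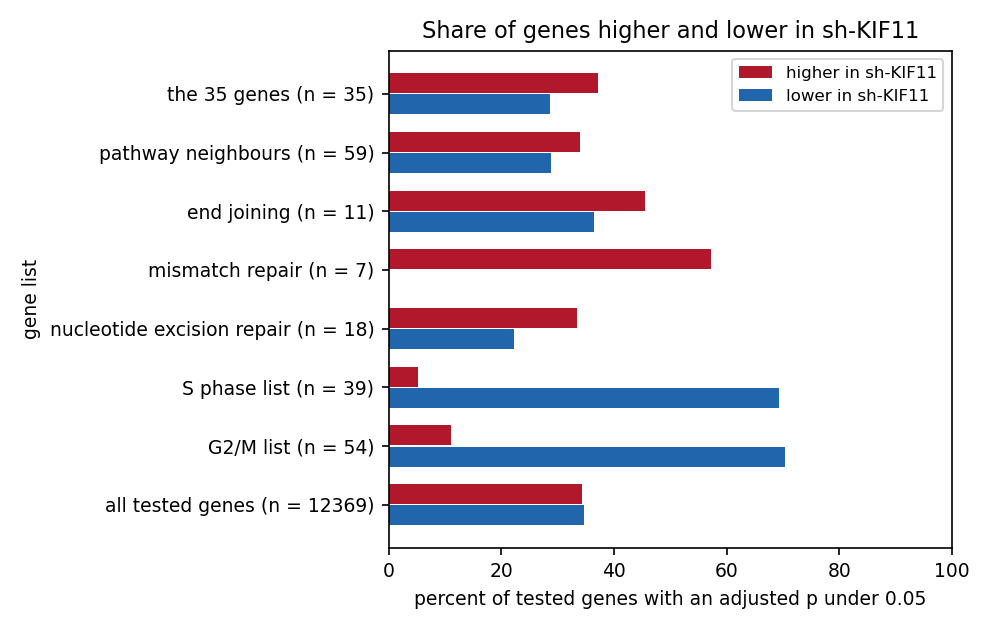
Share of tested genes called higher and lower in sh-KIF11, in percent, for all genes, the 35 repair genes and the other gene lists. The repair genes lie near all genes (69.1% called), while the S phase and G2/M lists are mostly lower.

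Some counts may hold reads of a neighbour. The library kit was stranded, but the strand setting of the counting is not given in the sources used here, so reads of overlapping genes on opposite strands may not have been told apart. FANCL overlaps VRK2, which rose by 0.71 (SE 0.0716), and ATM overlaps NPAT, which rose by 0.53 (SE 0.0873), both in the same direction as the repair gene. XRCC3 overlaps KLC1, which rose by 0.35 (SE 0.0551), and FANCA overlaps ZNF276, which rose by 0.37 (SE 0.0859), both in the opposite direction. RAD54L overlaps LRRC41, with a log2 change of -0.02 (SE 0.0517) that did not pass, and RAD50 overlaps IL5, which had at most 4 counts in any library. Other coding genes on the opposite strand are GAS2 at FANCF, DECR1 at NBN, POLG at FANCI and HSCB at CHEK2. FANCD2OS at FANCD2, ACRV1 at CHEK1 and C11orf65 at ATM also overlap. The changes of these neighbours are not reported here. On the same strand, CHEK1 overlaps STT3A, which changed by -0.65 (SE 0.0479), in the same direction as CHEK1. RAD50 also overlaps AC116366.3, RAD54B overlaps FSBP and RAD51D overlaps RAD51L3-RFFL on the same strand; how the reads of these overlaps were assigned is not given in the sources used here. CHEK2, RAD51AP1, FANCD2 and RBBP8 have pseudogene copies, so their counts are uncertain to the extent that reads were shared.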

How the data were processed

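Poly(A) RNA was sequenced from 3 sh-ctrl and 3 sh-KIF11 libraries of HepG2 cells. The authors deposited raw counts per gene and FPKM values per gene for each library. The submitters' processing notes name bcl2fastq 1.8.4, Trimmomatic, HISAT2 2.1.0, HTSeq 0.9.1, Cufflinks 2.2.1, DESeq and the build GRCh38, without role or order. Columns called shRNA in the tables were taken as sh-KIF11, the one shRNA besides the control that the labels give.

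The counts were tested with edgeR 4.0.16 (R 4.3.3): filterByExpr, TMM factors, a quasi-likelihood fit on group alone and a two-sided test, with Benjamini-Hochberg adjustment over 12369 genes and a threshold of 0.05. The filter left out 7661 genes. Standard errors are the log2 change divided by the square root of its F statistic. The biological coefficient of variation was 4.87%. Within groups, the chi-square of counts per degree of freedom was 2.62 to 7.83 for pairs of libraries, above sampling noise, so all 6 were kept. A floor of 3 counts was 0.145 to 0.178 CPM; it covers counting error only. DESeq2 1.42.0 and limma 3.58.1 on log2(FPKM + 1) and log2(FPKM + 0.1), which understates changes of low genes, served as alternatives, with RLE factors, upper-quartile factors, library totals, other filters, a replicate block and leaving out each library. On simulated counts of this comparison, edgeR recovered 98.5% of 197 genes changed by 1 on the log2 scale among 12265 genes, with 8 false calls; DESeq2 recovered 94% (8 false) and limma 97% (12 false) of 200 among 12369. Smaller changes, such as those of most of the 35 genes, were not simulated. The planted changes were few, balanced in direction and drawn with a common dispersion, without a shift in composition between the groups. In the data 69.1% of tested genes were called, so the number of false calls cannot be carried over to them.

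Ratios used raw counts. Positions come from GENCODE v29 (GRCh38) and promoters from RefSeq (GRCh38.p14). Counts in every library are given for the 6 largest rises and 6 largest falls that passed and for genes whose call changed under an alternative; from the other repair genes 5 a direction with at least 1 CPM were named, and from other lists up to 3; some genes that this rule names are not reported here. The members and lists were chosen with earlier results of these data known.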

Additional observations from a re-analysis of the deposited data

How the results depend on the processing

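Of 560 values of the 35 genes under 16 alternatives, 511 kept their call (with no call in either fit, a change of sign was not counted), 30 lost it, 12 gained one and 7 changed sign with a call in at least 1 of the fits. For 17 genes all 16 values were among the 511. Scaling moved the split most. By library totals alone, 22 of the 35 were higher and 5 lower (median 0.30), and BARD1 (0.22), FANCI (0.05), EXO1 (0.21) and NBN (0.05) changed sign. The median was 0.15 with upper-quartile factors (40.5% of all genes higher, 28.8% lower). With limma on log2(FPKM + 1), on log2(FPKM + 0.1) and on log2(FPKM + 1) without a filter, 6 were lower each time and the medians were 0.14, 0.18 and 0.14. RAD54B was then 0.29, 0.39 and 0.29. On the first of these scales 45.6% of all genes were higher and 21.0% lower. The cause of these shifts beyond the scaling itself was not tested. DESeq2 called 21 of the 35 and 8094 genes.

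Leaving out 1 library at a time gave 19 to 23 called of the 35 (lowest without sh-KIF11 replicate 2), 10 to 13 higher, 9 to 10 lower, a median of 0.05 to 0.10, 7975 to 8749 called genes in all and 32 to 40 of the 59 other repair genes. Fitted with the replicate number as a block, 23 of the 35 (13 higher, 10 lower) and 8607 genes were called. Same-numbered libraries had correlations of deviations of 0.03, -0.0185 and -0.00253. Differently numbered libraries had -0.0488 to 0.0528. With 3 libraries a group these values cannot settle whether same-numbered libraries were prepared together, and the labels do not say. The replicate block changed no call of the 35. RAD51B and FANCB, at 68 to 97 and 84 to 130 counts a library, had the largest standard errors of the 35 (0.182 and 0.164), so low counts limit what can be said of them.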

Other observations

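End joining and nucleotide excision repair also went both ways, as did all tested genes, of which 34.4% were higher and 34.7% lower. In end joining, 5 of 11 listed genes were higher and 4 lower (median log2 change 0.09, edgeR), led by APLF at 1.61 (SE 0.231) and LIG4, the ligase of the pathway, at 1.40 (SE 0.109), with XRCC4, its partner, at 0.56. LIG4 had 120, 127 and 110 counts under sh-ctrl, against 391, 361 and 327 under sh-KIF11. PAXX, XRCC6 (Ku70) and NHEJ1 fell by 0.51, 0.36 and 0.27 on the log2 scale. Of 7 mismatch repair genes, 4 were higher and none lower (median 0.20), among them MLH3 at 0.62, PMS1 at 0.60 and PMS2 at 0.32. Of 18 nucleotide excision repair genes, 6 were higher and 4 lower (median 0.04), with XPC at 0.59, ERCC6 at 0.43 and XPA at 0.36, and, among the lower, LIG1 at -0.41 and ERCC2 at -0.37. By library totals, 7 of the end joining, 6 of the mismatch repair and 12 of the nucleotide excision repair genes were higher. In that fit 53.5% of all tested genes were higher, and their median log2 change was 0.24.

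Across the 35 genes, the log2 change and the log2 exonic length had a Pearson r of 0.225 and a Spearman rho of 0.189, and without ATM and UBE2T, the genes of the most extreme lengths, r was 0.0539. Over 12193 tested genes with a length r was 0.159 and rho 0.249, and over the 59 other repair genes r was 0.50. These are descriptions across genes, which share libraries and are not replicates.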
